A study of Mus musculus with 2 samples.

Results

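In mouse interscapular brown adipose tissue, reads were assigned to 1460 transcripts that the GENCODE M21 annotation types as retained_intron, in genes with at least 50 reads in each of 2 libraries. They were 1460 of the 34697 transcripts with at least 1 read. A transcript entered if its identifier, without its version, carried that type and its gene passed the minimum, so the members were selected on the read counts of their genes. The members came from 932 of the 2300 genes that passed (40.5%). Over all genes, without the minimum, 4519 transcripts of this type had reads, of 21848 in the annotation (20.7%).

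Native poly(A)+ RNA was read on a nanopore, molecule by molecule, in 1 control library and 1 cold library. Both came from interscapular brown adipose tissue, a fat depot that burns fuel to make heat, of male wild type C57BL/6N mice of 20 weeks. Cold RNA was pooled from 3 mice held singly at 4 °C for 24 h, general housing was at 22 to 24 °C, and the pool size of the control is not given here. The labels attach the same account of cold exposure to both samples and name eWAT in the extraction text, so the groups rest on the treatment label of each sample. With 1 library per group there is no replicate spread and no test between the conditions. Intervals in parentheses are 95% intervals that cover counting error only and compare these 2 libraries. Where values come in pairs, the control stands first and the cold library second.

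An intron is cut out of a transcript by the spliceosome, which recognises a donor site at its 5′ end, almost always GT, and an acceptor site at its 3′ end, almost always AG. Where an intron stays in a polyadenylated transcript, the reading frame usually meets a stop codon inside it, and such transcripts are known to be held in the nucleus or to be degraded when they reach translation. Short introns, rich in G and C, with weak splice sites are known to be kept most often, and SR proteins, hnRNP proteins and their kinases are known to set how often this happens.

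Printed first is the sequence that sets such models apart from the coding form, as annotated. The sequences below are introns of members with most reads that hold exactly 1 whole intron of a coding transcript. Each lies between coding exons, with 10 exonic bases on either side, read 5′ to 3′ on the gene's strand from the GENCODE M21 transcript sequences (GRCm38). Capitals mark the first 2 and last 2 bases of the intron and the first stop codon in the frame of the coding exon upstream. The windows lie at chr2:173158079-173158201 (plus strand) for Pck1, chr6:124812696-124812799 (minus strand) for Tpi1, chr17:24722211-24722390 (minus) for Ndufb10 and chr11:102403704-102403800 (minus) for Slc25a39.
Pck1-202: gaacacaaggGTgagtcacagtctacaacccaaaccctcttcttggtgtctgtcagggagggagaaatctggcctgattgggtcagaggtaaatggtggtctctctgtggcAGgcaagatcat
Tpi1-204: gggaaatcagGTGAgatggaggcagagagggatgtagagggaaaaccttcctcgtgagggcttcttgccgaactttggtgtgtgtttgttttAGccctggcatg
Ndufb10-202: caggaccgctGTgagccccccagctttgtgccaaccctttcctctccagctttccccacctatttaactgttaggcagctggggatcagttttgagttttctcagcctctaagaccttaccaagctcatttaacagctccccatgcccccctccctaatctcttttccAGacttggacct
Slc25a39-213: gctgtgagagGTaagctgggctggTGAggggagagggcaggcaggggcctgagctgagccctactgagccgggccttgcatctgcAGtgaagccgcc

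All 4 of these introns open with GT and close with AG, and they are 77 to 160 bases long. In Tpi1-204 the stop codon begins inside the donor site itself, at base 2 of the intron, so that the capitals of the donor and of the stop run together. In Slc25a39-213 it begins at base 15 of the intron. The introns of Pck1-202 (103 bases) and Ndufb10-202 (160 bases) hold no stop codon in that frame, and neither length is a multiple of 3, so both shift the frame of the exons that follow. Pck1-202 is the only one of the 4 whose donor reads GTGAGT.

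Next come members named by the rule under data processing whose share of the gene differed between the libraries, as described further on. They hold exactly 1 whole intron too long for the lines above. Fastk-213, named after its values were seen, also holds 1 (760 bases) and is not shown. For the others the donor side is given with 10 exonic and 10 intronic bases and the first 2 intron bases in capitals. These introns lie at chr9:107336664-107337000 (minus strand, 337 bases) in Hemk1, chr5:100363449-100363827 (minus, 379 bases) in Sec31a, chr15:98596219-98596516 (minus, 298 bases) in Adcy6, chr1:165338345-165339884 (minus, 1540 bases) in Dcaf6 and chr5:30862644-30863203 (plus, 560 bases) in Mapre3.
Hemk1-205: agccaaaacaGTtaagtgta
Sec31a-206: tacagaccccGTatggactc
Adcy6-202: cttccctgagGTgtccgagc
Dcaf6-202: ccggacaatgGTaccggctg
Mapre3-203: tgttgacaaaGTaggtgtct
All 5 open with GT, none with GTAAGT or GTGAGT, and each meets a stop codon in frame, at base 25 in Dcaf6 and at bases 115 to 238 in the others.

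These features run through the whole set. The members hold 1133 different introns of at least 30 bases from coding transcripts of their genes, with a median length of 255 bases (quartiles 121 and 626) and a median GC content of 51.7%. The other 9846 coding introns of the same genes had a median of 1041 bases (quartiles 348 and 2801), and 55.4% of the introns inside members were under 300 bases long, against 22.6% of the others. Only 2 introns inside members were over 5000 bases, against 13.8% of the others. Of the 1133 introns, 1114 (98.3%) had GT-AG ends and 13 had GC-AG ends. Of 1015 that lie between coding exons, 908 (89.5%) held a stop codon in frame and 308 (30.3%) had a length that is a multiple of 3. The donor motifs GTAAGT or GTGAGT, searched on the gene's strand at the first 6 intron bases, opened 292 of them (25.8%).

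**Figure D1:**
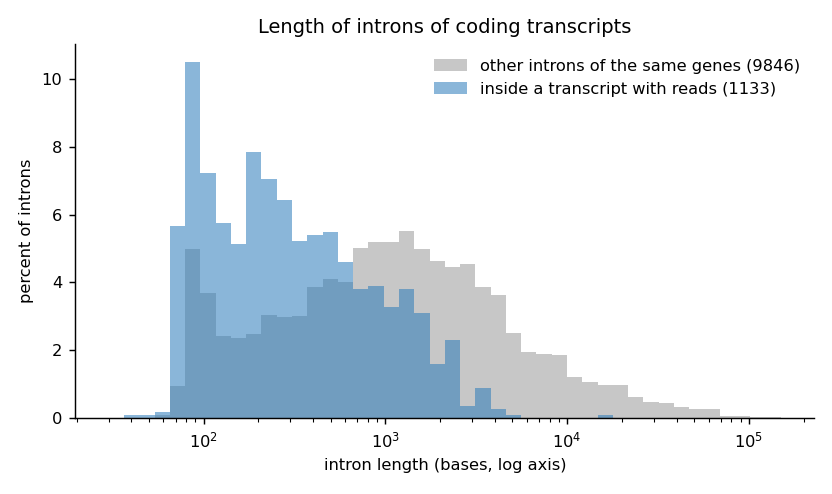
Length of introns of coding transcripts in the genes with members, in bases on a log axis, as a percent of each set. Blue shows the 1133 introns inside a retained-intron transcript with reads (median 255 bases) and grey the 9846 other introns of the same genes (median 1041 bases).

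Models without reads were built from introns of the same kind. Models of this type without any read numbered 2238 in the 2300 genes that passed. They hold 683 such introns with a median of 182 bases and a GC content of 50.9%, 98.4% with GT-AG ends. Of those between coding exons, 85.8% held a stop codon in frame. The donors of all 683 read GTAAGT or GTGAGT in 23.0%. Introns counted in this way were thus short whether or not a model had reads. The models without reads had a median length of 693.5 bases, which again limits the introns that can lie inside them.

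The annotated type covers several structures. A whole coding intron lies inside an exon of 698 members (47.8%), 1 such intron in 414 and several in 284. Of the other 762, 370 start inside an intron, 323 end inside one, 46 do both and 23 do neither; these 762 took 23.2% of member reads in the control against 23.1% in the cold library. A whole intron was found in 239 of the 340 members with at least 20 reads summed over both libraries (70.3%), and in 24.9% of the models without reads. A gene for a small nucleolar RNA, a guide of RNA modification that is often encoded in an intron, lies inside 27 members (1.85%), among them Hspa8-208, which holds Snord14c, Snord14d and Snord14e. A gene on the other strand overlaps 203 members, Ldhd-202, Tpi1-204, Adcy6-202 and both Tmem259 members below among them, and no source used here says whether the counting used strand.

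The 3′ ends of models with reads and without differed. Direct RNA reads begin at the poly(A) tail. Of the members, 491 (33.6%) end within 50 bases of the 3′ end of a coding transcript of the gene, against 101 of the models without reads (4.51%). These 491 took 73.5% of member reads in the control against 71.7% in the cold library. Another 936 members end before the last coding 3′ end and took 19.7% and 20.8%, and 29 end past every coding 3′ end and took 5.95% and 6.71%. The remaining 4 members belong to genes without a coding transcript.

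**Figure D2:**
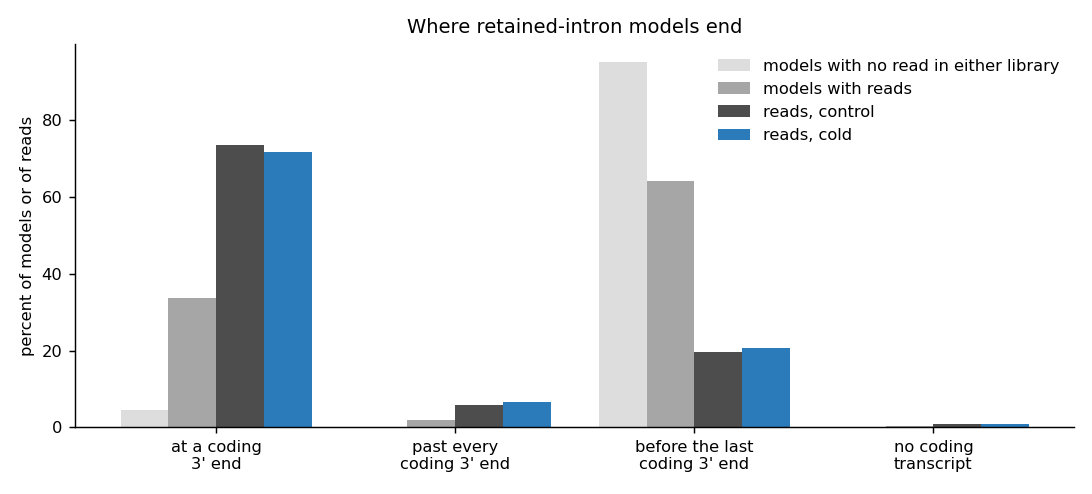
Where retained-intron models end relative to coding transcripts of their gene, as a percent of models (light and mid grey) or of member reads in the control (dark) and cold (blue) library. Models that end at a coding 3′ end are 4.51% of those without reads and 33.6% of those with reads, and hold 73.5% of the reads in the control against 71.7% in the cold library.

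The distance from the tail bears on what a read can show. In the 698 members with a whole intron, a median of 472.5 bases (quartiles 265.5 and 905) separate the intron nearest to the tail from the 3′ end of the model, and in 150 of them more than 1000 bases do. In 524 members, with 56.6% and 55.2% of member reads, the last 500 bases hold no stretch of 31 bases that is not shared with another transcript of the gene. The files give counts and no read lengths, so whether the reads of such a member reached its intron was not tested. In 167 members, 54 of them with at least 20 summed reads, no stretch of 31 bases anywhere in the model is its own. H2-K1-203, Rpl27a-201, Srsf5-212, Fastk-213 and Tmem259-204, described below, are among these. How their reads were told from those of other forms is not given. By distance, members with under 250 bases after the intron held 0.272% of nuclear-encoded reads in the control (0.263 to 0.282) against 0.241% in the cold library (0.230 to 0.251). Those with 1000 bases or more held 0.503% (0.491 to 0.516) and 0.504% (0.489 to 0.519). Reads at members were therefore not limited to models with an intron close to the tail.

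As a class, these transcripts took near-equal shares of the RNA in both libraries. All 4519 together held 34959 reads in the control, 3.01% of the 1160118 reads from nuclear-encoded genes (2.98 to 3.04), and 25602 reads in the cold library, 2.98% of 858355 (2.95 to 3.02). The difference was -0.0307 points (-0.0782 to 0.0169). The 1460 members held 26419 and 19273 of these reads, 2.28% and 2.25%. Transcripts typed nonsense_mediated_decay, the other class linked to RNA destruction, took 2.43% and 2.52%, and protein_coding transcripts took 77.6% and 82.0%.

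That near equality depends on what it is divided by. Reads assigned to nuclear copies of mitochondrial genes on chromosome 1 were 14.5% of nuclear-encoded reads in the control against 10.2% in the cold library. How reads that match both a copy and a mitochondrial gene were handled is not given. Whether these reads came from mitochondrial RNA was not tested. Without them, the retained-intron share was 3.52% (3.49 to 3.56) against 3.32% (3.28 to 3.36), a difference of -0.204 points (-0.258 to -0.150). Over all reads, mitochondrial ones included, it was 2.06% against 2.11%, a difference of 0.0474 points (0.0142 to 0.0807), so the direction turned. The other classes depend on the copies too. Without the copies, protein_coding transcripts took 90.8% and 91.3%. The nonsense_mediated_decay share was then 2.85% and 2.81%, a difference of -0.0410 points (-0.0902 to 0.00838), so its direction turned and the interval held 0.

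Marker genes of cell types differed in level between the libraries. Markers of brown adipocytes (10 of 10 detected in each library) took 3.64% and 4.93% of nuclear-encoded reads, and those of skeletal muscle (8 of 8) took 0.0503% and 0.210%. Endothelial markers (4 of 4) took 0.0315% and 0.0476%, macrophage markers 0.00422% (4 of 4) and 0.00699% (3 of 4), and lymphocyte markers were at 0 in the control and at 0.000699% (3 of 3) in the cold library. Of the member reads, muscle marker genes gave 1 in the control against 0 in the cold library. Malat1 and Neat1, long RNAs that stay in the nucleus, took 0.0294% and 0.0352%. In tissue RNA, more cells of a type and more RNA per cell cannot be told apart, and the part of these differences in the results was not tested.

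Reads were spread unevenly over the members. The median member had 3 reads summed over both libraries, 814 had 1 to 4, and the 93 members with at least 100 held 65.3% of member reads in the control against 65.5% in the cold library. Of the members, 850 (58.2%) were seen in both libraries, 356 (24.4%) in the control alone and 254 (17.4%) in the cold library alone, none of these last groups with more than 6 reads. Of all transcripts of the 2300 genes that passed, with or without a member, 79.8% were seen in both. Another 11.7% were seen in the control alone and 8.48% in the cold library alone. At matched depth the shares lay close: with 1 to 4 summed reads, 26.3% of members and 29.0% of all transcripts were seen in both, and with 5 to 19 reads 96.7% and 97.3%. The gene minimum cut without a natural gap. Just inside it stood Mrps26-201 with 37 and 32 reads and U2af2-206 with 19 and 12 in genes whose lower count was 50, and just outside it Ckb-204 with 2 and 95 and Ppcs-203 with 35 and 34 in genes whose lower count was 49.

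Summed over both libraries, the member with most reads was Pck1-202 (chr2:173153082-173159271), a form of the gene for cytosolic phosphoenolpyruvate carboxykinase, an enzyme with a part in making the glycerol backbone of triglycerides in fat. It had 1286 reads in the control against 563 in the cold library, beside 1327 and 630 for the coding form Pck1-201. Its share of the gene's reads was 49.1% (47.2 to 51.1) and 47.1% (44.2 to 49.9), a difference of -2.07 points (-5.47 to 1.35), so both forms had fewer reads in the cold library at a similar balance. In the cold library alone, Hspa8-208, described below, had more reads (663). The 103-base intron printed above lies 1080 bases from the 3′ end.

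Genes of the respiratory chain and of glycolysis were among the most read. Ndufb10-202 (chr17:24722060-24724420), of an accessory subunit of complex I, had 449 and 292 reads. Its share was 68.8% (65.0 to 72.3) in the control against 63.1% (58.5 to 67.5) in the cold library, while the coding form Ndufb10-201 went from 29.6% to 35.4%. Tpi1-204 (chr6:124810587-124814158), of triosephosphate isomerase, had 428 and 481 reads, and its share was 55.9% (52.3 to 59.4) and 62.5% (58.9 to 65.9). Both members thus made up over 50% of their genes' reads in both libraries. Gapdh-213 had 415 and 295 reads but only 5.76% and 5.19% of its gene.

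Other leading members came from genes of varied function. Hspa8-208, of the constitutive chaperone Hsc70, had 492 and 663 reads, 72.2% and 73.8% of the gene. Prdx5-202, of a peroxiredoxin, had 592 and 413 reads, 87.4% and 84.6%. Neither share was 5 points apart between the libraries. Fabp4-202 (394 and 300 reads), of the abundant fatty acid carrier of adipocytes, was 1.91% and 1.44% of its gene. Slc25a39-213, of the mitochondrial glutathione carrier, was 38.9% and 36.3% of its gene, and Mlf2-206 was 67.8% and 72.3%. Hspa8, Gapdh and the ribosomal protein genes have near-identical copies in the genome, so their counts are uncertain where reads could be split between copies.

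**Figure D3:**
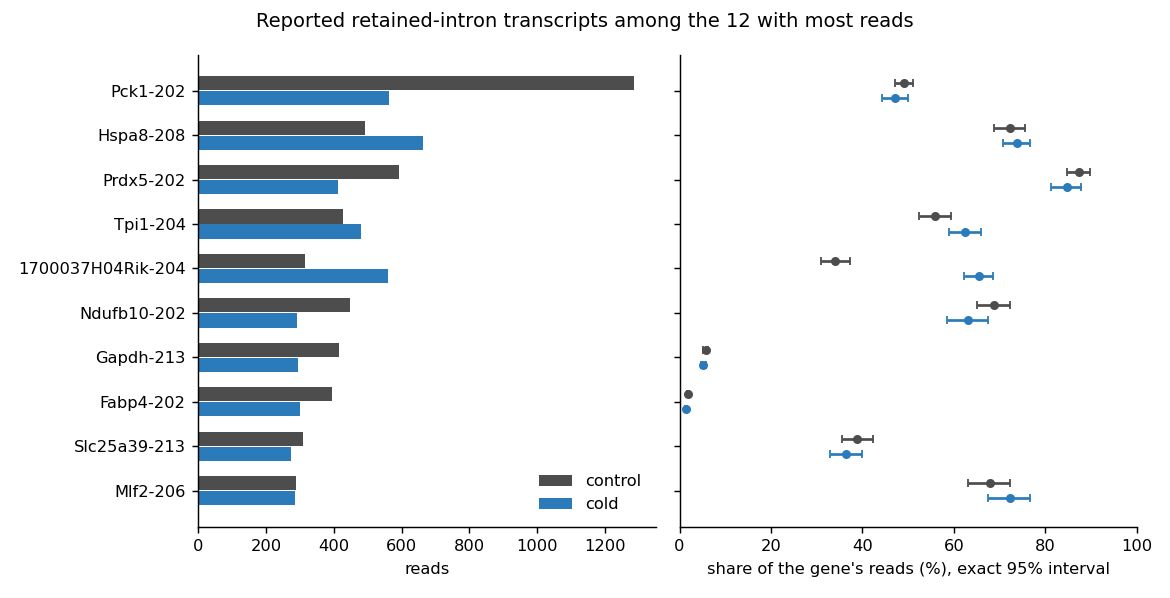
The 10 reported members among the 12 retained-intron transcripts with most reads: reads in each library (left, bars from 0) and share of the gene's reads in percent with exact 95% intervals (right), control in dark grey and cold in blue. Pck1-202 has 1286 and 563 reads at shares of 49.1% and 47.1%, and 1700037H04Rik-204 stands apart with shares of 34.1% and 65.5%.

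In 35 members with at least 20 summed reads, the retained-intron form held 50% or more of its gene's reads in both libraries. Summed per gene, the retained-intron forms reached 50% in 45 genes in both libraries and 10% in 215. Tmed7-202, of a cargo receptor of the early secretory pathway, had 73 of 80 reads in the control and 63 of 66 in the cold library. H2-K1-203, of a class I histocompatibility antigen, had 274 and 144 reads, 79.0% and 78.3%, and Psme1-206, of a proteasome activator subunit, had 100 and 47, 78.7% and 77.0%. Cyp2d22-206, of a cytochrome P450, had 43 and 47, 74.1% and 79.7%. Gm43305-201, Fam221b-202 and Gm20427-201 were at 100%, with no read at any other form of their gene. Gm43305 and Gm20427 have no coding transcript, so no coding form stood beside these members. Fam221b-202 holds no whole coding intron and ends inside one. Genes on the same strand (H2-Ke6 and Slc39a7) overlap Gm20427-201, and genes on the other strand (Gm12481 and Tmem8b) overlap Fam221b-202.

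The share of a member in its gene varied far more between members than between the libraries. Over the 340 members with at least 20 summed reads, the shares in both libraries had a Pearson correlation of 0.965, as a description across transcripts that share libraries and depth. In 252 of these (74.1%) the shares lay within 5 points of each other, against 74.5% of the 3992 other transcripts of the same minimum, and the counting interval of the difference held 0 in 303.

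The small differences leaned one way. Shares were lower in the cold library for 218 of the 340 members and higher for 119, with a median difference of -0.831 points. The 3593 protein_coding transcripts of the same minimum split into 1546 lower and 1618 higher, with a median of 0. Transcripts typed nonsense_mediated_decay (119 lower, 90 higher, median -0.401) and processed_transcript (97 lower, 53 higher, median -0.574) lay on the same side as the members. Among members with at least 100 reads, 60 were lower and 30 higher, with a median of -0.702 points. Shares of a gene's forms sum to 100%, so a lower share of one form is a higher share of another, and the cold library was the shallower one; the part of depth in this split was not tested.

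**Figure D4:**
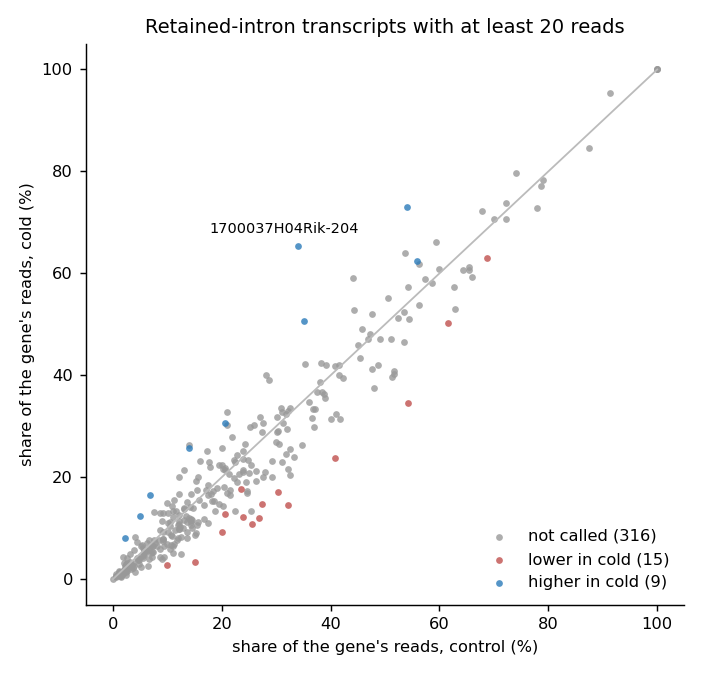
Share of the gene's reads in percent in the control (x) and the cold library (y) for the 340 members with at least 20 summed reads, with the line of equality. Red marks 15 members called lower in the cold library and blue 9 called higher; the remaining 316 in grey lie along the line.

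A share was called different where it moved by at least 5 points and the counting interval of the difference left out 0. By this rule 11 of the 1460 members (0.753%) were higher in the cold library and 18 (1.23%) were lower. Of all 7770 transcripts of the 2300 genes that passed, with or without a member, 2.12% were higher and 1.89% lower. With at least 20 summed reads, 9 of 340 members (2.65%) were higher and 15 (4.41%) lower, against 3.32% and 2.82% of all 4332 transcripts. Over all members, both shares called were thus below those of all transcripts, further so for higher calls. With at least 20 reads, lower calls were more frequent among members than among all transcripts and higher calls less frequent. These are counts in 1 pair of libraries, and the difference from the background was not tested.

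Over all reads of its gene, 1700037H04Rik-204 (chr2:131146325-131149028) was furthest apart. It had 316 of 928 reads in the control, 34.1% (31.004 to 37.2), and 559 of 854 in the cold library, 65.5% (62.2 to 68.6), a rise of 31.4 points (26.9 to 35.7). The form typed nonsense_mediated_decay, 1700037H04Rik-207, went from 526 to 248 reads and the coding form 1700037H04Rik-202 from 84 to 43. Counted over retained-intron and protein_coding reads alone, the difference of 1700037H04Rik-204 was 13.6 points. Several named members were further apart on the same count, led by Pepd-202 (-19.6), Ldhd-202 (19) and Dcaf6-202 (-18.2). On that count 1700037H04Rik-204 was thus not the furthest apart. This member starts inside an intron and holds no whole one, and it ends at the coding 3′ end, where it has no stretch of sequence of its own in the last 500 bases.

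The other shares that rose rested on far fewer reads, Tpi1-204 apart. Ldhd-202, of the mitochondrial D-lactate dehydrogenase, had 33 and 38 reads, 54.1% and 73.1% of the gene, a difference of 18.98 points (1.12 to 35.0). The other retained-intron form of the gene, Ldhd-203, went the other way, with 9 and 4 reads, 14.8% and 7.69%. Hemk1-205, of a methyltransferase that acts on release factors, had 26 and 43 reads, 35.1% and 50.6%, and its interval (0.0337 to 29.8) only just left out 0. Summed over all retained-intron forms of the gene, neither Ldhd nor Hemk1 was called. Sec31a-206, of the COPII coat that carries cargo from the endoplasmic reticulum, had 13 and 27 reads, 13.98% and 25.7%. Fastk-213 had 49 and 61 reads, 20.6% and 30.7%. Tpi1-204, described above, rose by 6.59 points (1.68 to 11.5) and is the only one of these besides 1700037H04Rik-204 with over 400 reads in a library. BC003965-202 (44.0% and 59.0%), Hypk-203 (28.1% and 40.0%), Elp5-203 (20.97% and 32.8%) and Emg1-206 (14.04% and 26.4%) also stood among the 8 largest positive differences, but their intervals held 0.

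Among the shares that fell, most again rested on few reads. Pepd-202, of a peptidase that cleaves dipeptides ending in proline, had 65 of 120 and 18 of 52 reads, 54.2% (44.8 to 63.3) and 34.6% (22.0 to 49.1). It starts inside an intron and holds no whole one, as do Rnf4-212, Ltbp3-202, Ppdpf-204, Letmd1-210, Acacb-204 and Sf3b2-208 below. Cops6-205, of a subunit of the COP9 signalosome, had 50 and 21 reads, 27.5% and 14.8%, while its coding form Cops6-201 had 114 and 113 reads. Adcy6-202, of an adenylyl cyclase that makes cAMP, had 35 and 18 reads, 30.4% and 17.1%, beside 75 and 80 for the coding form. In both genes the coding form thus had similar counts in the libraries, although the cold one was shallower. Dcaf6-202 (32.3% and 14.5%), Csnk1g2-203 (40.8% and 23.8%), Mapre3-203 (26.9% and 12.0%) and Rnf4-212 (25.6% and 10.8%) fell as well, each on under 32 reads in a library. Ltbp3-202 (32.5% and 20.5%) was among the 8 largest negative differences with an interval that held 0.

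Both members of Tmem259, the gene of a membrane protein, fell. Tmem259-205 had 49 and 25 reads and Tmem259-204 had 41 and 19, and together they were 43.9% (37.0 to 51.0) of the gene in the control against 21.4% (15.97 to 27.6) in the cold library, a fall by 22.5 points. The coding form Tmem259-201 had 110 and 159 reads. Both members end past every coding 3′ end. Slc2a4-207, of the insulin-responsive glucose transporter GLUT4, had 133 and 96 reads, 23.6% (20.1 to 27.3) and 17.6% (14.5 to 21.1), beside 423 and 438 for the coding form. Ndufb10-202 fell by 5.69 points, with an interval of -11.3 to -0.0701. Summed per gene, 8 of 932 genes (0.858%) had a higher retained-intron share in the cold library and 18 (1.93%) a lower one, and the summed protein_coding share was higher in 1.51% and lower in 0.665% of 2254 genes.

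**Figure D5:**
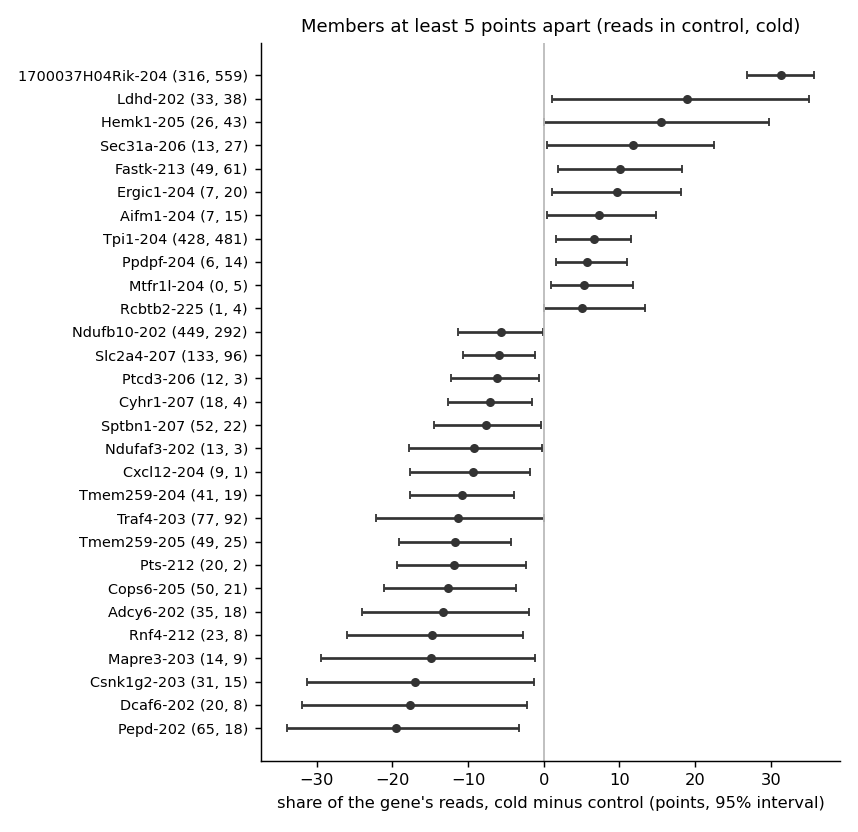
Difference in share of the gene's reads, cold minus control in percentage points with 95% counting intervals, for the 29 members called at 5 points, with reads in the control and the cold library after each name. The 11 higher members are led by 1700037H04Rik-204 at 31.4 points, and most other intervals end close to 0.

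The amounts of the members, as opposed to their shares, were compared as ratios. The ratio of cold to control, scaled between libraries by edgeR TMM factors, was called at 2-fold or more with an interval that left out 1, among members with at least 20 summed reads. It was higher for 14 of 340 members (4.12%) and lower for 25 (7.35%), against 3.88% and 3.51% of all 4332 transcripts. Scaled by total counts instead, 16 of these 340 members were higher and 16 lower, and the share of all transcripts by that scaling is not given here. The median log2 ratio was -0.21 for members and 0.01 for all transcripts. Across 337 members, the log2 ratio had a Pearson correlation of 0.588 with that of the rest of the gene, as a description of transcripts that share both libraries.

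The rest of the gene lay on the same side of 1 in 11 of the 14 members called higher by amount and in 23 of the 25 called lower. The same count for other transcripts called in this way is not given here, so these counts cannot be read against a background. Tkt-208 had 447 and 83 reads, 4.37-fold lower in the cold library (3.45 to 5.59), and Tkt-206 had 421 and 79, 4.32-fold lower; the rest of Tkt, the gene for transketolase of the pentose phosphate pathway, was 3.11-fold and 3.12-fold lower. Fabp5-202 had 30 and 3 reads, 8.11-fold lower (2.52 to 41.5), with the rest of the gene 3.05-fold lower. Fasn-203, of fatty acid synthase, had 20 and 2 reads, and the rest of Fasn was 3.98-fold lower. In the other direction, Adcy3-208, of the adenylyl cyclase type 3 gene, had 21 and 79 reads, 4.64-fold higher (2.84 to 7.91), with the rest of the gene 7.11-fold higher. Member and rest parted, with an interval of the rest on the other side of 1, in 2 members called higher and in 0 called lower. 1700037H04Rik-204 was 2.18-fold higher (1.90 to 2.51) and the rest of its gene 1.68-fold lower. Ppdpf-204 had 6 and 14 reads, 2.88-fold higher (1.04 to 9.14), and the ratio of the rest of Ppdpf was 0.784 (0.639 to 0.961). That rest includes other retained-intron forms, with most reads at Ppdpf-203 (117 and 85). Ppdpf-206, with 23 and 7 reads, was itself called 2.66-fold lower (1.11 to 7.35), so retained-intron forms of this gene went in opposite directions. For Rnf4-212, 2.33-fold lower, the rest had a ratio of 1.21 with an interval that held 1 (0.851 to 1.73).

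By function, the retained-intron share of all reads differed widely between gene groups and little between the libraries. Reads were pooled over the genes of a list, so a difference between the libraries can come from the mix of genes as well as from forms within genes. The part of each was not tested. In SR proteins and relatives, which bind exons and promote splicing, 5 of 7 genes with enough reads had members, with 16.2% (13.2 to 19.6) of reads in the control against 14.6% (11.7 to 17.9) in the cold library. In core spliceosome genes it was 8.15% and 7.94%, in hnRNP proteins and other regulators 3.39% and 2.70%, and over all genes with enough reads 2.69% and 2.70%. None of the 9, 9 and 17 members of these 3 lists was called, against 2.12% higher and 1.89% lower over all transcripts, and 35 members are too few to stand apart from that background. Srsf6-204 had 19 and 17 reads, Srsf5-212 had 20 and 15, and Srsf3-204 had 10 and 11, at 25.3% and 22.4%, 20.6% and 21.7%, and 14.1% and 12.0% of their genes. Snrpb-202, of a core protein of spliceosomal particles, had 43 and 36 reads, 31.9% and 24.7%, and Sf3b2-208, of the particle that binds the branch site, had 27 and 19, 27.6% and 30.6%.

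Of the tissue's own metabolism, brown fat and lipid genes had smaller shares of their reads in members than all genes together, and genes of mitochondrial energy conversion had a share near that of all genes in the control. Brown fat thermogenesis and identity genes had 0.457% (0.384 to 0.540) and 0.375% (0.308 to 0.452) of their reads in members, from 4 of 19 genes. Letmd1-210, of a mitochondrial inner membrane protein, carried most of these with 132 and 105 reads. Fatty acid and triglyceride genes had 0.775% and 0.820%, with 1 of 7 members of at least 20 reads higher and 6 lower in share; they include Acacb-204, of acetyl-CoA carboxylase 2, at 30.4% and 29.0% of its gene, and Dgat1-205 at 11.8% and 7.66%. Nuclear-encoded genes of mitochondrial energy conversion had 2.70% (2.61 to 2.80) and 2.39% (2.29 to 2.50), a difference of -0.309 points (-0.444 to -0.173), beside 2.69% and 2.70% for all genes. Of their 87 members 1 was called lower (Ndufb10-202), near the 1.23% of all members and 1.89% of all transcripts called lower. Atp5k-203, of a subunit of ATP synthase, had 337 and 206 reads, 31.2% and 30.6%.

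Cytosolic ribosomal protein genes had 6.93% (6.68 to 7.19) and 6.42% (6.14 to 6.71), a difference of -0.505 points (-0.884 to -0.122). None of their 112 members was called, against 2.12% higher and 1.89% lower over all transcripts. Of the 32 with at least 20 reads 23 were lower, beside 218 of 340 (64.1%) over all members. Rps21-204 held 53.5% and 52.3% of its gene, and Rpl27a-201 held 41.6% and 40.2%. Skeletal muscle genes had 3 and 1 member reads, 0.493% and 0.0573% of theirs, which were 609 and 1746. RNA surveillance genes had 1 and 3 member reads (0.840% and 2.40%). No kinase of SR proteins reached 50 reads in both libraries, so none could have a member. Of the nuclear long non-coding RNAs 1 gene did, with 327 and 277 reads and none at a retained-intron form, which allows a share of up to 1.12% and 1.32% (upper bounds of the exact 95% interval).

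The genes of the machinery itself were measured at the gene level. The median log2 ratio was 0.16 for 22 measured SR proteins and relatives, 0.34 for 7 kinases of SR proteins, -0.06 for 39 hnRNP proteins and regulators, -0.05 for 40 core spliceosome genes and 0.00 for 24 surveillance genes, beside 0.00 for all 7529 genes. Only in the SR and surveillance lists did any gene pass 2-fold, against 4.2% of all genes higher and 4.08% lower. Srsf9 had 46 and 16 reads, 2.33-fold lower (1.30 to 4.41), Srrm1 had 58 and 22, 2.14-fold lower (1.29 to 3.67), and Smg1, the kinase that starts nonsense-mediated decay, had 37 and 13, 2.31-fold lower (1.20 to 4.73). Exosc7, of the exosome that degrades RNA from its 3′ end, had 5 and 17, 4.19-fold higher (1.48 to 14.5). Mbnl1, a regulator of splice choice in muscle and other tissues, had 117 and 177 reads, 1.87-fold higher (1.47 to 2.38), and Srsf3 had 71 and 92, 1.60-fold higher (1.16 to 2.21). A scaling shifts all genes alike: by total counts the median of all genes was 0.18, and every list moved up with it. The medians of hnRNP proteins and of the core spliceosome, just below 0, thus changed sign by construction. The distances of the lists from the median of all genes stayed.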

How the data were processed

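Poly(A)+ RNA was sequenced with the direct RNA kit, which reads native molecules from the 3′ end, in 1 control and 1 cold library. The authors deposited raw read counts for each transcript, as whole numbers and not normalized, and list no transcript at 0. The submitters' processing notes name minimap2 and GRCm38. Not given in the sources used here are the aligner version, the annotation release, the counting tool, its use of strand and its handling of reads that match several transcripts. The files hold 1698124 reads (control) and 1215617 (cold), and this depth sets the width of the intervals. Intervals cover counting error only.

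Transcripts were matched to GENCODE M21 by identifier without version, and 75 and 79 transcripts (970 and 793 reads) found no gene. Shares of a gene's reads were formed where a gene had at least 50 reads in both files, with exact Clopper-Pearson intervals and Newcombe intervals of differences. Library sizes were scaled by edgeR 4.0.16 TMM factors (0.940 and 1.06; R 4.3.3), with DESeq2 1.42.0 size factors as an alternative, and log2 ratios of genes used a prior of 0.5 reads. Intervals of ratios came from the exact binomial interval of the cold count within the sum of both. A retained intron is an intron of a protein_coding transcript wholly inside an exon of the member. The interval functions were tested on simulated counts.

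The members and lists were chosen with earlier results of these data known. Named members are the 12 with most reads, the 8 with the highest mean share, the 8 with the largest positive and the 8 with the largest negative difference in share (each among members with at least 20 summed reads), up to 3 with most reads from each gene list, and 1700037H04Rik. Of splicing and surveillance genes, the 2 highest and 2 lowest ratios of each list among genes with at least 50 summed reads could be named. Fastk, Tmem259, Slc2a4, Tkt, Fabp5, Fasn, Adcy3, Ppdpf and Exosc7 were named after their values were seen. Some members that the rule names are not reported here. Lists were SR proteins and relatives, kinases of SR proteins, hnRNP and other splicing regulators, core spliceosome, RNA surveillance and decay, brown fat, fatty acid and triglyceride metabolism, mitochondrial energy conversion, ribosomal proteins, skeletal muscle and nuclear long non-coding RNA.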

Additional observations from a re-analysis of the deposited data

How the results depend on the processing

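No paired analysis was possible because each group has 1 library, and for the same reason no replicate could be left out. The retained-intron share of 3.01% and 2.98% became 2.06% and 2.11% over all reads, 3.52% and 3.32% without nuclear copies of mitochondrial genes, and 3.53% and 3.32% for protein-coding genes. It became 2.86% and 2.84% without Pck1-202 and Hspa8-208, which led the control and the cold library in member reads, 2.88% and 2.87% without muscle and ribosomal protein genes, and 1.75% and 1.73% for members with a whole intron. It was 1.67% and 1.61% for members that end at a coding 3′ end, an alternative chosen after seeing the data. The difference of -0.0307 points became -0.204 without the copies and -0.202 for protein-coding genes, and turned to 0.0474 over all reads. The counts of 11 higher and 18 lower shares became 20 and 39 with a gene minimum of 20 reads, 6 and 10 with a minimum of 100, and 5 and 11 at 10 points. The gene minimum also changes how many members are tested. The share of all transcripts called is not given here for these settings, so the counts cannot be read against a background. Of members 2-fold apart, 14 higher and 25 lower, 16 were lower by total counts. Of the 93 members with at least 100 reads, 4 were higher and 3 lower. Here too the share of all transcripts is not given. The median log2 ratio was 0.341 and 0.293 for SR proteins by total counts and by total counts outside the mitochondrial chromosome, and 0.517 and 0.470 for their kinases. By the same scalings it turned to 0.123 and 0.075 for hnRNP proteins and to 0.133 and 0.0852 for the core spliceosome. For surveillance genes it became 0.184 and 0.136, and turned to -0.0229 with DESeq2 size factors. The median of all genes moved with them, to 0.181, 0.133 and -0.0260. Apart from this shift and fewer reads in stricter settings, the cause was not tested. Of 56 named members, 55 moved by less than their interval when only retained-intron and protein_coding reads were counted; 1700037H04Rik-204 moved from 31.4 to 13.6 points. Depth limits the 1120 members with under 20 summed reads to their presence.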
